A study of Mus musculus with 6 samples.

Results

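The genes described here encode the enzymes that make cholesterol and fatty acids, and the proteins that sense sterols and set the level of those enzymes. They were chosen by name, as 34 gene symbols of the mevalonate, sterol, fatty acid synthesis, elongation and desaturation pathways. Of these symbols, 33 had a row among the 23366 genes of the deposited table, since Sc4mol and Msmo1 are an older and a newer name of the same gene. The RNA-seq libraries came from epithelial cells isolated out of the submandibular gland, a major salivary gland, of 12-week-old adult mice. The labels put 3 of them in a p63 knockout group and 3 in a p63 wild-type group, the controls. Trp63 encodes p63, a regulator that basal cells of many epithelia depend on, and the study asked what it does for salivary progenitor cells. The labels name no strain, Cre line, promoter, inducer or treatment for either group, so the cells that lost p63 and the time of its loss cannot be given. The labels also do not say how mice were allotted to libraries, so every p-value here reflects only how far these samples spread.

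Cholesterol is built from acetyl-CoA through mevalonate, isoprenoid units and squalene, which is closed into a ring and trimmed to the final sterol. Fatty acids start from the same acetyl-CoA, are joined by fatty acid synthase, and are then lengthened by elongases and given double bonds by desaturases. Both routes are controlled by the SREBP transcription factors, which SCAP carries out of the endoplasmic reticulum when sterols are low and which INSIG proteins hold back when sterols are plentiful. In secretory epithelia these lipids form the membranes of the endoplasmic reticulum and of secretory granules.

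Values were TPM, an abundance corrected for gene length and scaled to a total of 1000000 per library, so depth was unknown. The targeted gene Trp63 measured 1.59, 0.816 and 1.76 TPM in knockout libraries 1, 2 and 3, and 3.48, 1.85 and 3.68 TPM in wild-type libraries 1, 2 and 3. It was lower in every knockout library than in any wild-type library but did not pass the test (log2 fold change -0.74, SE 0.27, adjusted p = 0.27). Listed acinar and duct markers were present, with 8 to 10 of 10 acinar and 10 of 10 duct genes at 1 TPM or more in each library. Knockout library 3 stood apart from the others. It had 10634 genes at 1 TPM or more, against 11129 to 11235 in the other libraries, and it was the lowest knockout library for 71.9% of the 11268 genes tested. Its 50 most abundant genes held 80.3% of its TPM, against 69.2% to 75.9% in the other libraries, which left a smaller share for all other genes. Results are therefore given with and without it where it moves them. In bulk RNA, fewer cells of a type and less RNA per cell cannot be told apart.

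No gene of cholesterol or fatty acid synthesis passed the test between knockout and wild type. The test was limma's, on log2(TPM + 1) over the genes that reached 1 TPM in 3 or more libraries, at an adjusted p of 0.05. A total of 30 of the 33 genes entered it, and 0 passed in either direction (lowest adjusted p = 0.12, for Elovl6), against 0.39% of all genes tested (0.071% higher, 0.319% lower). At an unadjusted p of 0.05 there were 4 of the 30, namely Elovl6, Sc5d, Dhcr7 and Insig1, which is 13.3% against 15.4% of all genes (4.99% higher, 10.5% lower). The groups did not overlap for 2 of the 30, Elovl6 and Dhcr7, both lower in the knockout, while the groups were apart for 21.1% of all genes (5.42% higher, 15.6% lower). Both shares were near or below those of all genes. Of the 30 log2 fold changes 21 were negative (70.0%, against 42.6% of all genes tested), and their median was -0.26, against 0.09 for all genes tested. The number that passed was 10 without knockout library 3, with 3 higher and 7 lower, but 45.5% of all genes passed in that fit (33.8% higher and 11.7% lower). With array weights, which give a library that stands apart less weight, it was also 10, with 4 higher and 6 lower, against 42.8% of all genes (30.9% higher and 11.9% lower). Without knockout library 3 the median log2 fold change was -0.33 for the 30 genes and 0.26 for all genes tested.

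**Figure D1:**
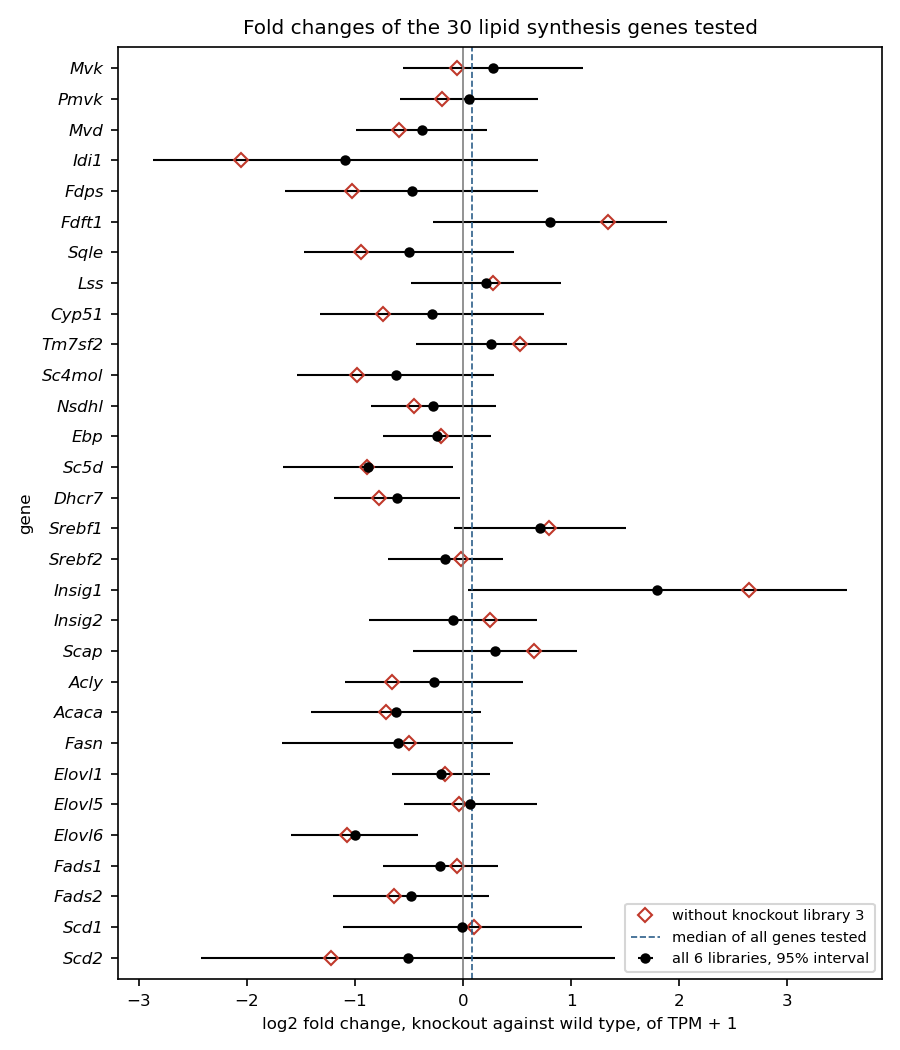
Log2 fold change of TPM + 1, knockout against wild type, of the 30 genes tested, with 95% intervals over all 6 libraries (filled circles) and the value without knockout library 3 (open diamonds). The dashed line is the median of all genes tested over all 6 libraries, 0.09. Without knockout library 3 that median was 0.26. Insig1 lies farthest to the right at 1.80 and Idi1 farthest to the left at -1.09.

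The remaining 3 genes were below the filter. Hmgcs1, encoding the HMG-CoA synthase of the cytosol, was listed at 0 TPM in all 6 libraries, as were 5229 genes in all. A listed 0 may be a failed estimate, so it is not read as absence of expression. Hsd17b7, a sterol ketone reductase, measured 0.335 to 1.58 TPM in the knockout and 0.810 to 1.28 TPM in wild type. Stard4, a carrier of cholesterol between membranes, measured 0.466 to 0.840 TPM in the knockout and 0.436 to 0.938 TPM in wild type. Of the genes tested, 29 had at least 1 TPM in all 6 libraries. The exception was Mvd, at 0.678 TPM in knockout library 1.

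None of the mevalonate and isoprenoid genes passed, and the groups overlapped for all 5 tested. Idi1, the isomerase that interconverts the isoprenoid building blocks, measured 1.32, 2.16 and 19.3 TPM in knockout libraries 1, 2 and 3. In wild-type libraries 1, 2 and 3 it measured 7.999, 15.8 and 8.46 TPM. Knockout libraries 1 and 2 lay below every wild-type library, and knockout library 3 lay above them all. For Idi1 the log2 fold change came to -1.09 (SE 0.76, adjusted p = 0.47), and without knockout library 3 it was -2.06 (SE 0.30, adjusted p = 0.0023). Fdps, which joins isoprenoid units into farnesyl diphosphate, was at 16.5, 11.3 and 45.6 TPM across the knockout libraries and at 22.3, 44.0 and 24.5 TPM in wild type. As for Idi1, knockout library 3 and wild-type library 2 were the highest of their groups. For Fdps the log2 fold change came to -0.47 (SE 0.50, adjusted p = 0.62), and -1.03 without knockout library 3 (SE 0.31, adjusted p = 0.031). Reads of Fdps can also match its processed pseudogenes, so its level is less certain.

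The other 3 genes of this segment were Mvk and Pmvk, the kinases of mevalonate and of phosphomevalonate, and Mvd, the decarboxylase that follows them. Mvk ranged from 5.10 to 15.2 TPM in the knockout and from 6.77 to 8.19 TPM in wild type, with a log2 fold change of 0.28 (95% interval -0.56 to 1.11). Pmvk ranged from 7.62 to 14.99 TPM and from 9.30 to 10.7 TPM, with a log2 fold change of 0.06 (95% interval -0.58 to 0.70). Mvd was lower in level, at 0.678 to 1.93 TPM and 1.40 to 2.49 TPM, with a log2 fold change of -0.38 (95% interval -0.99 to 0.22). In all 3 genes the highest knockout value was that of library 3 and the highest wild-type value that of library 2. The signs of Mvk and Pmvk depended on knockout library 3, since without it they were at -0.06 and -0.19. Summed over the segment, the level was 33.1, 31.9 and 97.02 TPM in the knockout against 48.5, 81.2 and 50.9 TPM in wild type.

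**Figure D2:**
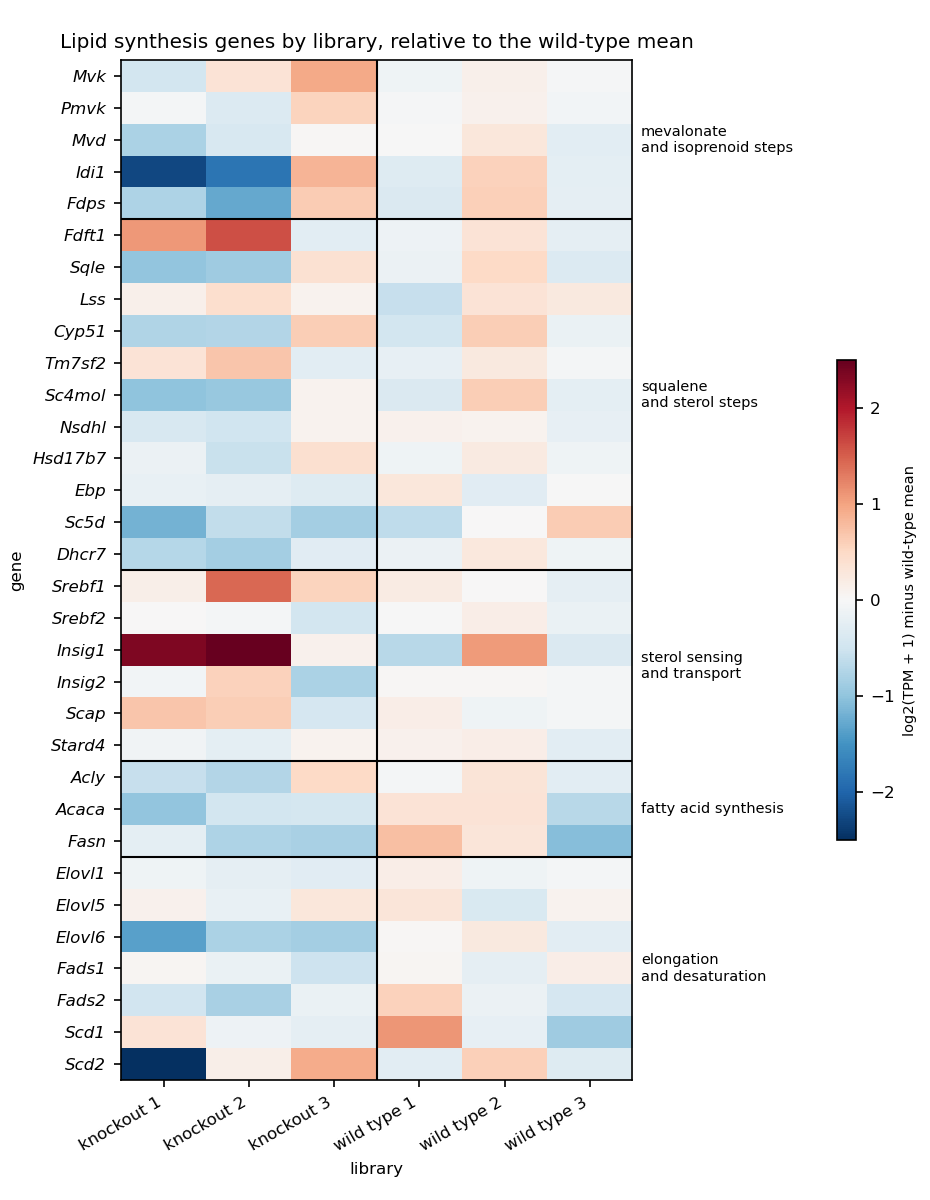
Difference of log2(TPM + 1) from the mean of the wild-type libraries, for the 32 genes listed above 0 TPM, by library and by step of the pathway (red higher, blue lower; colours end at 2.5 in either direction). Idi1, Fdps, Sqle and Cyp51 are blue in knockout libraries 1 and 2 and red in knockout library 3 and wild-type library 2, Sc4mol is near white in knockout library 3, and Fdft1 and Insig1 are red in knockout libraries 1 and 2.

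Among the squalene and sterol genes, 7 of 10 tested had negative log2 fold changes, and the first enzyme had the largest positive one. Fdft1, the squalene synthase that commits farnesyl units to sterols, was at 24.7, 36.2 and 9.15 TPM across the knockout libraries and at 10.2, 14.5 and 9.44 TPM in wild type. Knockout libraries 1 and 2 lay above every wild-type library and library 3 below them. For Fdft1 the log2 fold change came to 0.81 (SE 0.46, adjusted p = 0.41), and 1.34 without knockout library 3 (SE 0.23, adjusted p = 0.0043). Sqle, the squalene epoxidase and a slow step of the route, was at 2.39, 2.66 and 7.81 TPM in the knockout and 5.10, 8.50 and 4.32 TPM in wild type. For Sqle the log2 fold change came to -0.50 (SE 0.42, adjusted p = 0.54), and -0.94 without knockout library 3 (SE 0.25, adjusted p = 0.022).

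Sc4mol, the sterol methyl oxidase, was at 7.34, 7.78 and 16.9 TPM in the knockout and at 12.1, 24.8 and 13.2 TPM in wild type. For Sc4mol the log2 fold change came to -0.62 (SE 0.39, adjusted p = 0.44), and -0.98 without knockout library 3 (SE 0.29, adjusted p = 0.030). Cyp51, the lanosterol demethylase, measured 3.08, 3.15 and 9.54 TPM and 4.02, 9.49 and 5.16 TPM. It was not called with or without knockout library 3 (log2 fold changes -0.29 and -0.74, adjusted p = 0.74 and 0.082). In Sqle, Sc4mol and Cyp51, as in Idi1, knockout library 3 and wild-type library 2 were the highest of their groups. Full values of Sqle, Sc4mol and Cyp51 here, and of Scap, Scd1, Adipoq and Plin1 later, are given by a choice made after their values were seen.

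Dhcr7, which catalyses a last reduction to cholesterol, was at 6.997, 6.25 and 9.80 TPM across the knockout libraries and at 10.7, 14.6 and 11.2 TPM in wild type. It was the sterol enzyme for which the groups were fully apart, at 7.68 ± 1.87 TPM against 12.2 ± 2.13 TPM (SD, n = 3 each). For Dhcr7 the log2 fold change came to -0.61 (SE 0.25, adjusted p = 0.31), and -0.78 without knockout library 3 (SE 0.17, adjusted p = 0.010). Sc5d, the sterol desaturase that makes the substrate of Dhcr7, was at 22.6, 34.0 and 28.6 TPM in the knockout and at 33.4, 52.4 and 81.2 TPM in wild type. The groups touched, since knockout library 2 lay just above wild-type library 1, and its log2 fold change of -0.88 did not pass (SE 0.34, adjusted p = 0.28).

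Of the other sterol genes, Nsdhl, a sterol dehydrogenase, had a log2 fold change of -0.27 (95% interval -0.85 to 0.30) and Ebp, the sterol isomerase, one of -0.24 (95% interval -0.74 to 0.26). Ebp was at 22.1 to 24.3 TPM in the knockout and ranged from 22.8 to 33.9 TPM in wild type. Lss, the cyclase that closes the ring, was at 0.21 (95% interval -0.48 to 0.91) and Tm7sf2, a sterol reductase, at 0.26 (95% interval -0.44 to 0.96). None of these 4 genes passed in any alternative tried, and the widths of the intervals leave changes of either sign possible.

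The same libraries were highest in other genes of the pathway. In 12 of the 30 genes tested, library 3 was the highest of the knockout libraries and library 2 the highest of the wild-type libraries. This was so for 2.82% of all genes tested, or 318 genes. The 12 genes were all 5 of the mevalonate segment, then Sqle, Cyp51, Sc4mol and Dhcr7 of the sterol steps, and Acly, Acaca and Scd2 of fatty acid synthesis and desaturation. Acaca was among them by near ties. It was at 2.92 and 2.87 TPM in knockout libraries 3 and 2, and at 5.72 and 5.71 TPM in wild-type libraries 2 and 1. Knockout library 3 alone was above the other knockout libraries in 15 of the 30 genes, against 14.4% of all genes. In 11 of the 30 genes knockout libraries 1 and 2 both lay below every wild-type library, against 19.8% of all genes, and in 4 they lay above, against 47.3% of all genes. The 4 were Fdft1, Tm7sf2, Insig1 and Scap. This pattern concerns only 6 libraries and was noticed in these values, so it is given as a description. With median-of-ratios scaling, quantile normalization or rescaling without the 50 most abundant genes, 16 of the 30 genes had it, while the share of all genes with it was then between 10.4% and 11.7%. Wild-type library 2 was also the highest wild-type library for the parotid markers Amy1, at 72.9, 713 and 77.6 TPM in wild type, and Dnase1, at 17.8, 157 and 12.2 TPM. In the knockout both were highest in library 1, at 1586 and 232 TPM, and were at 58.8 and 9.85 TPM in library 3. Of the other parotid and sublingual markers, Prb1, Prpmp5, Cldn10 and Smr3a were also highest in library 2 within wild type. Car6 and Muc19 were instead highest in wild-type library 1. Muc19 was at 38.8, 0.885 and 0.0179 TPM in wild type and at 21.3, 0.267 and 0.0172 TPM in the knockout. Over the 9 markers of parotid and sublingual gland the summed level was 55372 to 80854 TPM in the knockout and 38751 to 45414 TPM in wild type, mostly from Car6, which the submandibular gland also makes; Bpifb1 was at 0 in all 6 libraries, and 0 of the 6 markers tested passed. The part of other glands in the lipid gene values was not tested.

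**Figure D3:**
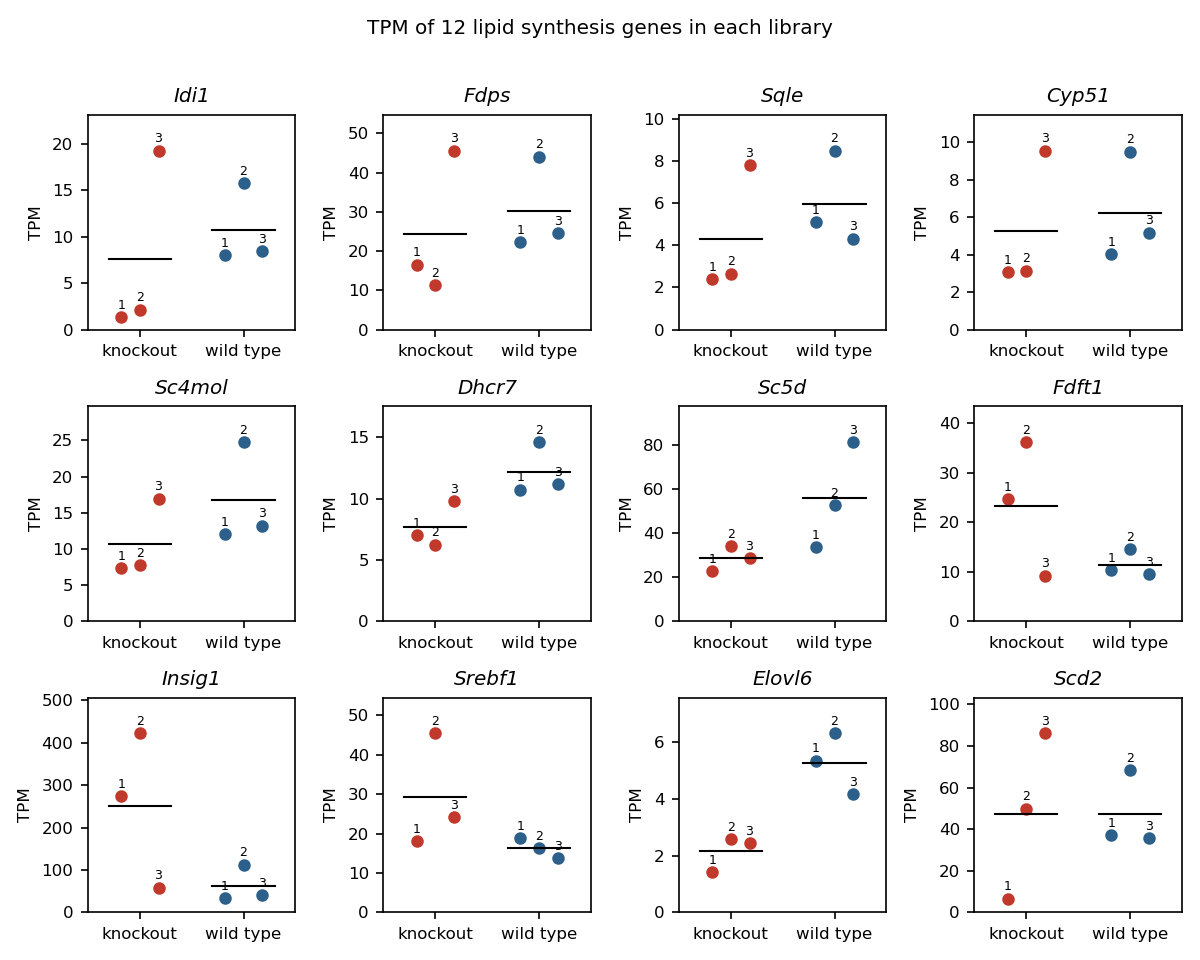
TPM of 12 genes in each library, with the library number above each point and a line at the group mean (knockout red, wild type blue, each axis starting at 0). In Idi1, Fdps, Sqle, Cyp51 and Sc4mol the points marked 3 in the knockout and 2 in wild type are the highest of their groups, in Fdft1 and Insig1 knockout points 1 and 2 are highest, and in Dhcr7 and Elovl6 the groups do not overlap.

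Promoter sequence was set beside this pattern, since members of the pathway share regulators. Windows from 250 bases before to 50 bases after the start were at hand for 26 of the 33 genes, from RefSeq on the GRCm38.p6 build, and were searched on both strands. The CCAAT box, which binds NF-Y, a partner of SREBP at sterol genes, was present in 22 of the 26 genes (84.6%). It was present in 42.7% of the 8397 genes tested that had a window, and in 41.1% of all 27025 genes with one. The GC box GGGCGG, bound by Sp1, was present in 21 of the 26 (80.8%) against 70.1% of the genes tested with a window. The E-box CACGTG was present in 6 of the 26 (23.1%) against 12.2%. The sterol response element TCACNCCAC was found in 1 of the 26, Hmgcs1 (3.85% against 1.38%), and a pair of p53 family CATG cores with a 6-base gap in 0 of the 26 (against 0.357%). Each is a match of letters and no shown binding site, and a gene with several starts had several windows.

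The windows of 3 genes that were low in knockout libraries 1 and 2 and of Insig1, which was high in them, are shown for comparison. They are the 250 bases before the start, 5′ to 3′ on the strand of the gene, with CCAAT or its complement ATTGG in capitals. Msmo1 is the current name of Sc4mol. Coordinates are of GRCm38.p6 and are not those of the mm9 build named for the expression values. They are chr13:8885356-8885605 on the plus strand for Idi1, chr5:4104698-4104947 on the minus strand for Cyp51, chr8:64733579-64733828 on the minus strand for Msmo1 and chr5:28071162-28071411 on the plus strand for Insig1.
Idi1: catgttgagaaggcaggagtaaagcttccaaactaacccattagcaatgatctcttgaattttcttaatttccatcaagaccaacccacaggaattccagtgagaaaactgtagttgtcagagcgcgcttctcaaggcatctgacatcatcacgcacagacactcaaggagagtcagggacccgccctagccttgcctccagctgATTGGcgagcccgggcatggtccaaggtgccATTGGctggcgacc
Cyp51: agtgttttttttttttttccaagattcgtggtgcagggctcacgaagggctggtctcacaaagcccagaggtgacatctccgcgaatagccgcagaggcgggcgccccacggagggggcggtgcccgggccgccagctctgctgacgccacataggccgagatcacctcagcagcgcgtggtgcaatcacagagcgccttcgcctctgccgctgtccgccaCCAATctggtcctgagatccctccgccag
Msmo1: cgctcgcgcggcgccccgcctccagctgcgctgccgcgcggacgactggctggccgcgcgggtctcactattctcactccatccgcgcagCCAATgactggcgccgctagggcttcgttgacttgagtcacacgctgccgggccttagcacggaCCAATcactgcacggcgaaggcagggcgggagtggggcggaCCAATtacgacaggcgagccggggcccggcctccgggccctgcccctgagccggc
Insig1: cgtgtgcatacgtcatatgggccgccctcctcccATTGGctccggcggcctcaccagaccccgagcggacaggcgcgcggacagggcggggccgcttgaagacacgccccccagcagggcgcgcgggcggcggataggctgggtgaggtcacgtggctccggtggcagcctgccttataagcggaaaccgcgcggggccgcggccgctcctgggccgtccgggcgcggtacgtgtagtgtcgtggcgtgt
The box occurs in all 4 windows, with 2 matches in Idi1, 1 in Cyp51, 3 in Msmo1 and 1 in Insig1. Its presence thus did not separate these 3 genes from Insig1. With the box in 22 of the 26 genes, a match in all 4 windows was likely beforehand. The genes whose windows lacked the box were Elovl6, Fads2, Scap and Acaca. Elovl6 and Fads2 were also low in knockout libraries 1 and 2, while Scap was high in them. In Acaca only knockout library 1 lay below every wild-type library. The window of Elovl6, the gene with the lowest p, held none of the 5 motifs.

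Of the 5 sterol sensing genes tested, 3 had positive and 2 negative log2 fold changes, and none passed. Insig1, which retains SCAP in the endoplasmic reticulum and is itself a target of SREBP, was the most abundant of the 33 genes. It was at 274, 422 and 58.1 TPM across the knockout libraries and at 32.8, 113 and 41.3 TPM in wild type. Knockout libraries 1 and 2 lay above every wild-type library, and knockout library 3 lay within the wild-type range. Its log2 fold change of 1.80 was the largest of all 30 genes but did not pass (SE 0.75, adjusted p = 0.32), and it was 2.64 without knockout library 3 (SE 0.49, adjusted p = 0.0056). Idi1 and Insig1, both SREBP targets, stood at opposite ends of the fold changes. Insig2, the second retention protein, did not share the pattern of Insig1, at 20.6 to 54.2 TPM in the knockout and 34.8 to 36.9 TPM in wild type (log2 fold change -0.09, 95% interval -0.87 to 0.68, and 0.25 without knockout library 3).

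Srebf1, whose product mainly drives fatty acid genes, was at 18.1, 45.4 and 24.1 TPM across the knockout libraries and at 18.9, 16.3 and 13.8 TPM in wild type. Knockout library 2 stood far above the rest, and knockout library 1 lay just below the highest wild-type value. For Srebf1 the log2 fold change came to 0.71 (SE 0.34, adjusted p = 0.36). Srebf2, whose product mainly drives sterol genes, was at 10.3 to 14.8 TPM in the knockout and 13 to 16.6 TPM in wild type, with a log2 fold change of -0.16 (95% interval -0.70 to 0.37). Scap, the escort of both, was at 24.8, 23.8 and 11.0 TPM in the knockout and at 16.9, 13.9 and 14.5 TPM in wild type. For Scap the log2 fold change came to 0.29 (SE 0.32, adjusted p = 0.63), and 0.65 without knockout library 3 (SE 0.14, adjusted p = 0.0096). The median of all genes tested was 0.26 in that fit.

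All 3 genes of fatty acid synthesis proper had negative log2 fold changes and none passed. Fasn, the fatty acid synthase, was at 14.2, 9.60 and 9.30 TPM across the knockout libraries and at 29.3, 21.4 and 7.62 TPM in wild type. Wild-type library 3 was the lowest of all 6, so the groups overlapped (log2 fold change -0.60, SE 0.46, adjusted p = 0.50). Acaca, the carboxylase that makes malonyl-CoA for Fasn, was at 1.68, 2.87 and 2.92 TPM in the knockout and at 5.71, 5.72 and 2.29 TPM in wild type. Again wild-type library 3 lay among the knockout values (log2 fold change -0.62, SE 0.34, adjusted p = 0.39). Acly, which supplies acetyl-CoA to both pathways from citrate, measured 33.9, 30.2 and 72.8 TPM and 49.2, 63.9 and 42.0 TPM. Knockout library 3 and wild-type library 2 were its highest, unlike those of Fasn, with a log2 fold change of -0.27 (SE 0.35, adjusted p = 0.69), and -0.66 without knockout library 3 (SE 0.19, adjusted p = 0.030).

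The adipocyte markers Adipoq and Plin1 moved with Fasn and Acaca across the wild-type libraries. Adipoq, the adipocyte hormone adiponectin, was at 4.72, 1.64 and 2.16 TPM across the knockout libraries and at 14.1, 14.7 and 2.91 TPM in wild type. Plin1, a coat protein of fat droplets, was at 1.25, 0.327 and 0.327 TPM in the knockout and at 5.08, 4.49 and 0.340 TPM in wild type. Both were high in wild-type libraries 1 and 2 and low in library 3, as Fasn and Acaca were. Of the 15 adipocyte markers 14 were tested and 0 passed, with 11 negative and 3 positive log2 fold changes (Lipe, Pnpla2 and Cebpa). The summed level of the 15 was 630, 264 and 124 TPM across the knockout libraries and 459, 416 and 171 TPM in wild type. The sum was thus also lowest in wild-type library 3, but Retn, at 4.23, 1.86 and 2.15 TPM in wild type, was high in library 1 alone. In knockout library 1, where the sum was highest, Fasn was the highest of the knockout libraries and Acaca the lowest. No adipocyte marker was at 0 in all libraries, and the hormone gene Lep was the lowest, at 0.0388 to 1.34 TPM. The part of adipocyte RNA in the values of Fasn and Acaca was not tested. Thrsp, a lipogenic gene of adipose tissue and liver, was at 1.70, 3.55 and 7.25 TPM in the knockout and at 44.3, 27.2 and 7.68 TPM in wild type (log2 fold change -2.26, SE 0.64, adjusted p = 0.16).

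**Figure D4:**
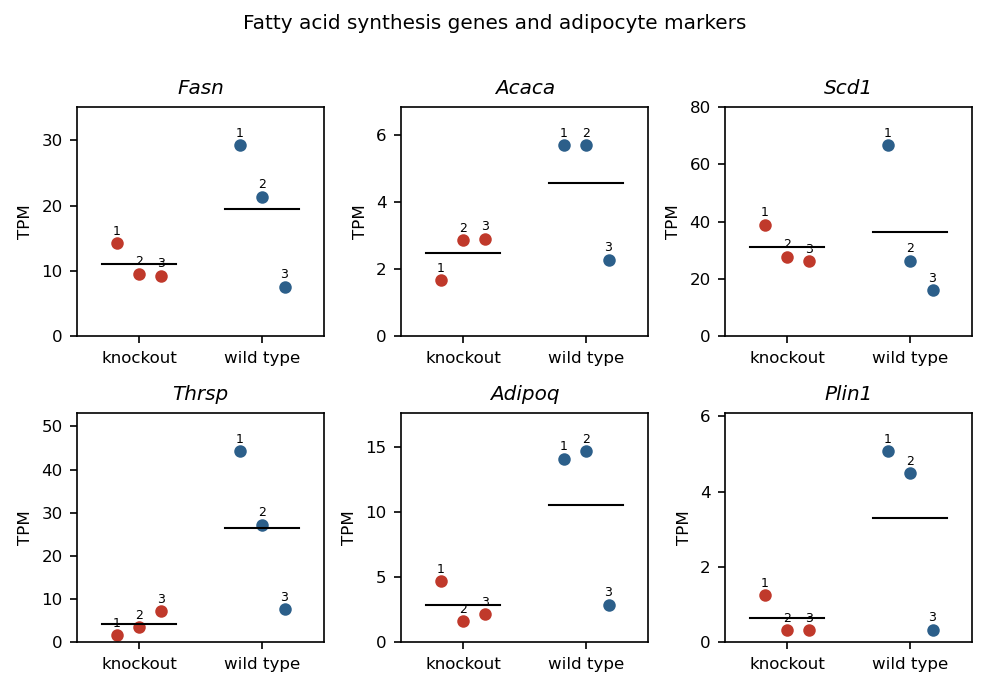
TPM of Fasn, Acaca, Scd1, Thrsp and the adipocyte markers Adipoq and Plin1 in each library, with the library number above each point and a line at the group mean (each axis starting at 0). In Fasn, Acaca, Thrsp, Adipoq and Plin1 wild-type libraries 1 and 2 are high and wild-type library 3 is near the knockout values, while in Scd1 wild-type library 1 alone is high.

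Elovl6, the elongase that takes palmitate to stearate, had the lowest p of the 30 genes tested. It was at 1.42, 2.58 and 2.45 TPM across the knockout libraries and at 5.35, 6.31 and 4.16 TPM in wild type. Every knockout library lay below every wild-type library, at 2.15 ± 0.635 TPM against 5.28 ± 1.08 TPM (SD, n = 3 each). For Elovl6 the log2 fold change came to -1.0003 (SE 0.25, 95% interval -1.59 to -0.41), but it did not pass over all genes (adjusted p = 0.12, and 0.0094 without knockout library 3). Over 16 alternatives the log2 fold change stayed between -1.28 and -0.82. Elovl1, which lengthens saturated very long chains, was at 17.7 to 20.2 TPM in the knockout and 20.1 to 24.5 TPM in wild type (log2 fold change -0.20, 95% interval -0.66 to 0.25). Elovl5, which lengthens polyunsaturated chains, had a log2 fold change of 0.07 (95% interval -0.55 to 0.68).

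Elovl7, another elongase of long-chain acids and not among the 33 genes, was the 1 gene of the 6 comparison lists of lipid metabolism that passed. It fell to 13.5, 12.6 and 12.5 TPM in the knockout libraries from 33.8, 30.1 and 34.6 TPM in wild type. The log2 fold change was -1.29 (SE 0.19, adjusted p = 0.048), but Elovl7 failed the test in 12 of 17 alternatives, where adjusted p ran from 0.00072 to 0.26 over all 17. Markers of the granular convoluted tubule, the duct segment that stores growth factors and kallikreins, separated the groups in the same direction as Elovl6, Elovl7 and Dhcr7. Their summed level was 17182 to 41326 TPM in the knockout and 113002 to 132292 TPM in wild type, and all 10 tested were lower in every knockout library. Lower in every knockout library were also 9 of 10 basal and myoepithelial, 6 of 10 fibroblast, 6 of 8 macrophage and dendritic cell, 4 of 10 duct, 4 of 9 endothelial, 3 of 7 Schwann cell and 2 of 14 adipocyte markers tested, against 15.6% of all genes. The count was 0 of 8 for acinar and 0 of 6 for parotid and sublingual markers. Higher in every knockout library were 2 acinar, 1 parotid and sublingual and 1 Schwann cell marker, against 5.42% of all genes. The part of these cell types in the values of the 3 lipid genes was not tested.

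All 4 desaturase genes had negative log2 fold changes, Scd1 by almost nothing, and none passed. Scd1, the stearoyl-CoA desaturase of lipogenic tissue, was at 39.0, 27.8 and 26.1 TPM across the knockout libraries and at 66.7, 26.4 and 16.1 TPM in wild type. Its log2 fold change was -0.0049 (95% interval -1.11 to 1.10), and its sign depended on the alternative. Scd2, a related isoform, was at 6.63, 49.9 and 86.1 TPM in the knockout and at 37.2, 68.5 and 35.7 TPM in wild type. Knockout library 1 was the lowest by far, and the log2 fold change of -0.51 (SE 0.82, adjusted p = 0.75) turned to 0.53 without it. The Scd genes are close copies of each other, so the split of reads between them is uncertain. Fads2 and Fads1, the desaturases of polyunsaturated acids, were low, at 1.52 to 2.91 and 1.54 to 2.78 TPM in the knockout and 2.27 to 5.53 and 2.13 to 3.06 TPM in wild type. Their log2 fold changes were -0.48 (95% interval -1.20 to 0.24) and -0.21 (95% interval -0.74 to 0.32).

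The comparison lists held 105 further genes of lipid metabolism, of which 94 were tested. Elovl7 passed as lower and 0 passed as higher, while 5 were higher and 11 lower at an unadjusted p of 0.05 (17.0% in all, against 15.4% of all genes tested, of which 4.99% higher and 10.5% lower). Of their log2 fold changes 47 were negative and 47 positive. In the list of other sterol and isoprenoid genes 0 of 10 passed and the median log2 fold change was -0.12. Its highest was Lbr, a lamin receptor with sterol reductase activity (log2 fold change 0.59, adjusted p = 0.35). Among genes that process or degrade SREBP and its partners 0 of 11 passed (median 0.10), from Vcp, an unfoldase, at -0.33 to Erlin1, a membrane protein of the sterol response, at 0.75. For cholesterol uptake, transport and efflux 0 of 17 passed (median 0.29), and the highest was Abca1, a cholesterol exporter, at 1.12.

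Among other genes of fatty acid synthesis, elongation and activation 1 of 21 passed, Elovl7, and the median was -0.34. Thrsp was the lowest and Aacs, which activates acetoacetate for lipid synthesis, the highest at 1.29 (adjusted p = 0.24). Of the genes of glycerolipid assembly 0 of 16 passed (median 0.06), from the acyltransferase gene Dgat2 at -1.28 to the phosphatase gene Lpin1 at 1.48. Of the fatty acid oxidation genes 0 of 19 passed (median 0.03), from Cpt2, a carnitine transferase, at -0.79 to Ppargc1a, a coactivator of mitochondrial genes, at 1.65. Without knockout library 3, 28 of the 94 genes passed as higher and 11 as lower (41.5%, against 45.5% of all genes).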

How the data were processed

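The labels' protocols name the Direct-zol kit for RNA and Illumina TruSeq RNA for libraries. The deposited values are TPM, for which the authors scaled raw counts to gene length and library size, per the labels. The build was mm9 and the tools included DESeq2 1.20.0, featureCounts 1.5.1, Bowtie2 2.2.6 and TopHat2 2.1.1, per the submitters' processing notes. Which annotation, strand setting and read counts lay behind them is not given in the sources used here, so no count test was run and no detection limit is given. TPM are shares of a fixed total, so abundant genes can move all others.

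The genotype label gave the groups, and replicate numbers follow accession order. Genes reaching 1 TPM in 3 or more libraries, 11268 in all, entered limma 3.58.1 (R 4.3.3) on log2(TPM + 1), knockout against wild type, with a mean-variance trend and no covariate. Tests were two-sided, and every adjusted p is limma's, by the Benjamini-Hochberg method over all genes tested, at a threshold of 0.05. The pseudocount makes fold changes of low genes look smaller than they are. The genes, comparison lists and marker lists were chosen with earlier results of these data known, so no p is given for a list. Every gene with a row is named. TPM in every library was set to be given for genes that passed or whose groups did not overlap, and per step for the 2 largest fold changes and the most abundant gene. In each comparison list the passing genes and the highest and lowest fold changes are named, except for some that are not reported here. The alternatives are listed in the closing section. The procedure was tested on simulated data. Python 3.11.15 and matplotlib 3.10.9 drew the figures.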

Additional observations from a re-analysis of the deposited data

How the results depend on the processing

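The number of the 30 lipid synthesis genes that passed stayed at 0 in 15 of 17 alternatives, and was 10 with array weights (4 higher, 6 lower) and between 0 and 10 when 1 library was left out. The 10 came without knockout library 3, to which array weights gave a weight of 0.0900 against 0.763 to 2.76 for the others. Over all genes, 44 passed (8 higher, 36 lower), against 25 with a pseudocount of 0.1 TPM, 11 with no filter, 29 with a 5 TPM filter, 4822 with array weights (3477 higher, 1345 lower), and 0 to 5127 when 1 library was left out. It was 11 without knockout library 1, 16 without knockout library 2, 5127 without knockout library 3 (3809 higher, 1318 lower), and 1, 0 and 0 without wild-type libraries 1, 2 and 3, with 879, 1024 and 1020 genes at an unadjusted p below 0.05. The comparison lists had 1 passing gene, but 0 with pseudocounts of 0.1 and 0.5 TPM, no filter, quantile normalization, limma without trend, robust moderation or the replicate block, 2 with median-of-ratios scaling, 36 with array weights, and 0 to 39 when 1 library was left out (39 without knockout library 3, 0 in each of the other 5). The cause was not tested. The median of the 30 log2 fold changes stayed between -0.37 and -0.19. The median of all genes was 0.09, and 0.04, -0.0085 and 0.03 with median-of-ratios scaling, quantile normalization and rescaling without the 50 most abundant genes.

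Signs turned for 8 of the 30 genes. Pmvk was at -0.091 with quantile normalization and -0.20 with array weights, Elovl5 at -0.069 and -0.057 there, Insig2 at 0.31 with array weights, and Scd1 at 0.0013 with a pseudocount of 0.1 TPM and 0.17 with array weights. When 1 library was left out, the values that turned were Mvk -0.058, Pmvk -0.19, Insig2 0.25, Elovl5 -0.041 and Scd1 0.10 (knockout 3), Lss -0.079 and Scd1 0.54 (wild type 1), Cyp51 0.017 and Elovl5 -0.13 (wild type 2), Scd1 0.059 (knockout 2) and Scd2 0.53 (knockout 1). Leave-one-out ranges were -0.058 to 0.65 for Mvk, -0.19 to 0.25 for Pmvk, -0.079 to 0.39 for Lss, -0.74 to 0.017 for Cyp51, -0.42 to 0.25 for Insig2, -0.13 to 0.22 for Elovl5, -0.45 to 0.54 for Scd1 and -1.22 to 0.53 for Scd2.

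The labels give no shared replicate numbers, but index numbers in the titles neighbour each other across groups in 3 pairs. The leading numbers of the titles also lie close to each other within the same pairs. The deviations from the group means correlated at 0.17, 0.23 and 0.08 within these pairs, across genes. Between libraries of different pairs they correlated at -0.21 to 0.03, so every value within a pair was the higher. No label says what the index numbers or the leading numbers stand for, so pairing is not established. With these pairs as a replicate block 31 of all genes passed and 0 of the 30. Whether the pattern of highest libraries depends on scaling was examined after seeing the data. TPM keeps no depth, so what depth limits cannot be given, and 3 libraries a group leave wide intervals.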

Other observations

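Knockout library 2 was the highest of all 6 libraries for 9 of 17 tested genes of cholesterol uptake, transport and efflux, against 28.6% of all genes tested. The genes named here were picked after their values were seen. Abca1, a cholesterol exporter, measured 5.19, 16.0 and 3.50 TPM in the knockout, against 2.64, 2.42 and 2.68 TPM in wild type. Abcg1, another exporter, measured 3.02, 18.1 and 3.56 TPM and 3.44, 3.85 and 3.61 TPM. Mylip, a ubiquitin ligase, measured 27.0, 72.3 and 22.9 TPM and 23.7, 21.1 and 19.7 TPM. Srebf1 stood at 45.4 TPM in the same library and at 13.8 to 24.1 TPM in the others. Apoe, the lipoprotein component of the same list, was at 232 TPM in that library, below the 242 to 307 TPM of wild type. None of these 5 genes passed limma's test over all 6 libraries. Abca1 passed without knockout library 3 (log2 fold change 1.52, adjusted p = 0.017), where 45.5% of all genes passed. Srebf1 (adjusted p = 0.021), Abcg1 and Mylip (adjusted p = 0.049 and 0.011) each passed in 1 alternative, array weights. In that fit 42.8% of all genes passed, so these calls do not set the genes apart.

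Knockout library 1 was the highest of all 6 for 11 of 19 tested genes of fatty acid oxidation, against 34.5% of all genes tested. Cpt1a, the carnitine transferase that admits fatty acids to mitochondria, measured 162, 65.9 and 20.2 TPM in the knockout, against 35.5, 29.99 and 35.2 TPM in wild type. Acadl, a long-chain dehydrogenase, measured 260, 58.4 and 41.0 TPM in the knockout and 55.7, 42.1 and 48.0 TPM in wild type. In glycerolipid assembly, Lpin1 measured 158, 106 and 11.9 TPM in the knockout and 22.2, 16.8 and 23.3 TPM in wild type. Among the 30 lipid synthesis genes tested, the same library was the lowest of all 6 for Mvk, Mvd, Idi1, Sqle, Cyp51, Sc4mol, Sc5d, Acaca, Elovl6 and Scd2. The share of all genes lowest in it was not counted. Some markers of other cells were also highest in it among the knockout libraries. The parotid marker Amy1 was at 1586, 41.1 and 58.8 TPM in the knockout and Dnase1 at 232, 14.4 and 9.85 TPM. The adipocyte marker Fabp4 was at 186, 24.2 and 40.3 TPM in the knockout, but at 194, 200 and 62.7 TPM in wild type. Of the 14 adipocyte markers tested, 3 were highest of all 6 libraries in knockout library 1. The part of other cells in these values was not tested. These genes were also picked after their values were seen.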
